A study of Mus musculus with 12 samples.

Results

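SSEA-1+ cells sorted on day 16 of reprogramming were compared with SSEA-1+ cells sorted on day 12, which are the last sorted stages before established induced pluripotent stem cells (iPSCs) on the successful route of the study. The comparison took the D12S+ and D16S+ libraries, 2 of 12, and the 12463 of 24098 genes in the table whose FPKM reached 1 in either library. FPKM is the number of fragments assigned to a gene scaled to transcript length and to the mapped fragments of the library. Differences were taken on log2(FPKM + 1), which understates the change of low genes. The gene nearest the floor on the inside had a higher value of 1.00062 FPKM, and the nearest on the outside had 0.99901 FPKM. Each condition had 1 library, so no difference here has a replicate check, and no test was made. A gene is said to have risen or fallen only where its log2 difference was at least 1 in size, which is 2-fold on this scale.

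The cells came from mouse embryonic fibroblasts (MEFs) of E13.5 embryos that carry an IRES-EGFP cassette behind the Oct4 gene. All reprogramming cells had received Oct4, Sox2, Klf4 and c-Myc (OSKM) from pMXs retroviruses and had grown on without passage in FF medium, which holds LIF, bFGF, CHIR99021 and ascorbic acid. D12S+ and D16S+ are the cells that bound an antibody to SSEA-1, and D12S- and D16S- are the unbound cells of the same days. D9T- and D9T+ are day 9 cells sorted on Thy-1, and D0 are the MEFs. The end points are iPSCs and mouse embryonic stem cells of the ESD3 line (mESCs). For these the methods of the study list media with LIF but without bFGF, CHIR99021 or ascorbic acid. What the medium adds to differences between D16S+ and the end points was not tested. The marker sorts a mixed culture, and nothing in the labels shows how many cultures were pooled in a library or how many cells in it carried an active Oct4 reporter.

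SSEA-1 is a fucosylated carbohydrate on the surface of mouse pluripotent cells and of some other embryonic cells, and in reprogramming it appears before the endogenous pluripotency network is fully active. In the last stage of reprogramming, cells switch on their own copies of the pluripotency genes, silence the retroviruses and lose what is left of the fibroblast programme. In bulk RNA, fewer cells of a type and less RNA per cell cannot be told apart.

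Among the 12463 genes, 509 (4.08%) rose and 754 (6.05%) fell from D12S+ to D16S+. At least 4-fold differences were found for 50 genes (0.401%) on the higher side and for 77 (0.618%) on the lower side. The median log2 difference over all genes was -0.03 and its standard deviation over genes was 0.64. Counting any difference, 5995 genes were higher and 6468 were lower. Of the 509 genes that rose, 132 were below 1 FPKM in D12S+, and of the 754 that fell, 136 were below 1 FPKM in D16S+. These had to differ to be among the genes compared at all.

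**Figure D1:**
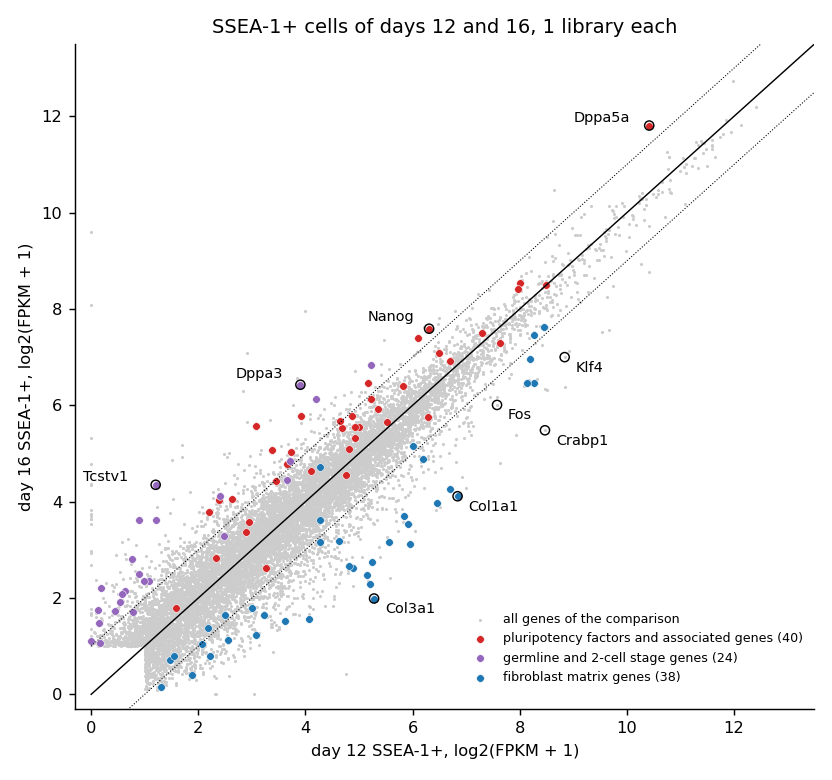
Level of each of the 12463 genes in D12S+ (x axis) and in D16S+ (y axis), both on log2(FPKM + 1), with 1 point per gene and the 2-fold lines drawn. Coloured points are list members, circled points are named genes, and the 509 genes that rose lie on or above the upper line and the 754 that fell on or below the lower one.

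The libraries differed in ways that touch these counts. The total FPKM of D16S+ was 484968, the lowest of the 12 libraries, against 512175 in D12S+, and the relative depth of D16S+ estimated from the steps of low values was 1.45 times that of D12S+. The 95% interval that cuffdiff models for each FPKM was wide, with a median half-width of 100% of the FPKM in both libraries, and 0 genes had intervals that stood apart. The difference also moved with base composition. Among the 11372 genes (91.2%) with a GC value from a coding transcript, the median log2 difference went from 0.29 in the fifth of lowest GC content through 0.14, -0.06 and -0.18 to -0.30 in the fifth of highest GC content. From low to high GC, 7.60%, 5.15%, 2.59%, 1.98% and 1.45% of the genes rose, and 2.29%, 3.52%, 7.65%, 8.22% and 9.45% fell. In the SSEA-1- cells of the same days these medians lay between -0.03 and 0.02. List medians are therefore also given after centring every gene on the median of its GC bin, an alternative chosen after seeing the data.

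**Figure D2:**
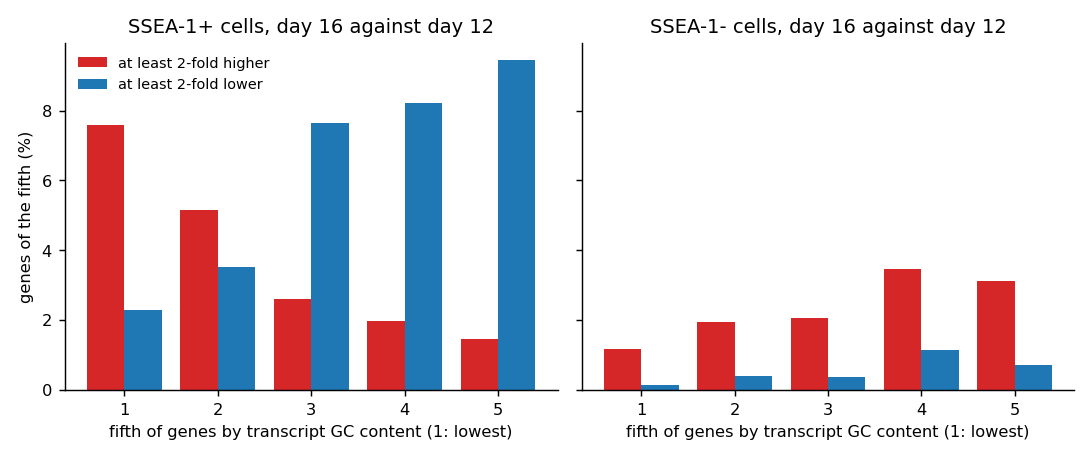
Share of genes (y axis, in %) at least 2-fold higher (red) and lower (blue) on day 16 in each of 5 equal groups of genes ordered by transcript GC content (x axis), for SSEA-1+ cells on the left and SSEA-1- cells on the right. In SSEA-1+ cells the share that rose goes down from 7.60% to 1.45% and the share that fell goes up from 2.29% to 9.45% with GC content.

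Marker genes were checked against the label of the sort. The 7 pluripotent cell markers summed to 2065 FPKM in D12S+ and 4759 FPKM in D16S+, and most of both sums came from Dppa5a. All 7 were higher, with a median log2 difference of 1.28, and 4 of them rose. Of 11 fibroblast markers 9 reached the floor, 6 fell, and their sum went from 272 to 37.6 FPKM. Postn and Lum, a matrix protein and a proteoglycan of fibroblasts, were below 1 FPKM in both libraries. Leukocyte markers summed to 106 and 96.5 FPKM, with Ptprc, which encodes the pan-leukocyte antigen CD45, below 1 FPKM in both. Sums for keratinocyte (55.8 and 38.0 FPKM), neural (75.9 and 45.5 FPKM) and extraembryonic endoderm markers (492 and 272 FPKM) were lower in D16S+. Sums for mast cell (12.3 and 17.9 FPKM), muscle (12.3 and 17.4 FPKM), endothelial (57.4 and 85.0 FPKM) and trophoblast markers (155 and 239 FPKM) were higher. Lists share genes, such as Pecam1, which is both an endothelial and a pluripotent cell gene. What mixed cells add to the differences was not tested.

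Genes for the synthesis of the sorted epitope showed no 2-fold change. None of the 12 SSEA-1 synthesis genes that reached the floor rose or fell, and their median was -0.08. Fut4 and Fut9, the fucosyltransferases that complete the epitope, and B3gnt5 were below 1 FPKM in both libraries. B3gnt7, which extends lactosamine chains, was at 47.5 and 70.5 FPKM.

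The pluripotency network was higher in D16S+ throughout most of its members. Of 16 naive pluripotency factors 14 were higher and 4 rose, with a median log2 difference of 0.58 (0.78 after GC centring). Nanog, the homeodomain factor of naive pluripotent cells (chromosome 6, 122657507 to 122664651, plus strand, mm9), rose from 78.2 FPKM to 192 FPKM. Its log2 difference was 1.28, and D16S+ stood above iPSCs (143 FPKM) and mESCs (137 FPKM). The list as a whole did not, as the median log2 level of the 16 factors was 4.30 in D12S+, 5.21 in D16S+, 5.89 in iPSCs and 5.45 in mESCs. Zfp42, which encodes the stem cell marker Rex1, rose from 14.1 to 54.2 FPKM (1.87). Tcl1, a co-activator of the Akt kinase, rose from 9.35 to 32.9 FPKM (1.71), and the nuclear receptor gene Nr5a2 rose from 3.60 to 12.7 FPKM (1.57). These were the 4 naive factors past 2-fold.

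Esrrb, another nuclear receptor gene of the network, was at 89.5 and 134 FPKM and did not reach 2-fold. Klf2 (55.6 and 83.8 FPKM), Klf5 (24.7 and 45.2 FPKM), Tfcp2l1 (9.87 and 20.6 FPKM) and Prdm14 (6.39 and 9.35 FPKM) were likewise higher by less than 2-fold. Gbx2 was at 8.58 and 5.18 FPKM, and Rarg at 77.0 and 53.4 FPKM, the only members of the list that were lower. In the SSEA-1- cells, where the same list had a median of 0.04, Nanog was at 9.48 FPKM on day 12 and 8.99 FPKM on day 16.

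Of 24 other pluripotency-associated genes 22 were higher and 10 rose, with a median of 0.77 (0.87 after GC centring). Dppa3, a maternal factor that protects methylated DNA in the early embryo (chromosome 6, 122576428 to 122580290, plus strand, mm9), rose from 14 to 85.0 FPKM, a log2 difference of 2.52. The end points had 17.9 FPKM (iPSCs) and 5.53 FPKM (mESCs), so D16S+ held the highest value of these libraries. Fbxo15, an F-box gene that was an early reporter of reprogramming, rose from 7.39 to 46.8 FPKM (2.51) and was at 25.9 FPKM in iPSCs. Dppa5a, an RNA-binding protein gene and the most abundant member, rose from 1365 to 3582 FPKM (1.39), against 2441 FPKM in iPSCs. The median log2 level of the 24 genes was nonetheless lower in D16S+ (5.721) than in iPSCs (6.173), and was 5.725 in mESCs.

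Dppa2 (5.20 and 15.6 FPKM) and Dppa4 (35.0 and 86.6 FPKM), which encode partner proteins that open bivalent and germline promoters, both rose. Alpl, the alkaline phosphatase used to stain pluripotent colonies, rose from 67.9 to 168 FPKM. Lin28a, which blocks let-7 processing, rose from 23.9 to 49.7 FPKM, but its log2 difference of 1.03 was just past the limit. Pecam1 (12.3 and 31.9 FPKM), Triml2 (4.20 and 15.4 FPKM) and Trim6 (11.6 and 26.6 FPKM) complete the 10. Utf1 at 254 and 372 FPKM, Tdgf1 at 250 and 339 FPKM, and Cd9 at 357 and 358 FPKM had reached most or all of their D16S+ level by day 12.

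The 4 reprogramming factor genes were all lower in D16S+. Reads of the retroviral copies are counted together with those of the endogenous genes, so these values hold both. Klf4 fell from 456 to 127 FPKM (-1.84) and Myc from 318 to 92.6 FPKM (-1.77), while iPSCs had 56.5 FPKM of Klf4 and 44.0 FPKM of Myc. Pou5f1, which encodes Oct4, was at 2161 and 1157 FPKM (-0.90), and Sox2 was at 230 and 146 FPKM (-0.66). For all 4, D16S+ was nearer to iPSCs than D12S+ was, with Pou5f1 going below the 1516 FPKM of iPSCs. D12S- and D16S- differed less, as Klf4 was at 762 and 691 FPKM and Myc at 627 and 599 FPKM. The share of these levels that came from the retroviruses was not tested.

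Of 21 genes for the silencing of retroviruses 18 were higher, 1 rose and none fell, with a median of 0.38 (0.27 after GC centring). The riser was Yy1, a zinc finger factor that binds retroviral long terminal repeats, which went from 8.16 to 20.3 FPKM (1.22). Trim28, the scaffold of KRAB zinc finger repression, was at 405 and 531 FPKM, and Setdb1, the H3K9 methyltransferase it recruits, was at 31.6 and 46.8 FPKM. Zfp809, which targets the primer binding site of murine leukaemia virus, was at 6.61 and 8.67 FPKM. None of these reached 2-fold.

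Germline genes that are kept silent by promoter methylation in somatic cells were higher in D16S+ without exception. Of the 26 listed genes 25 had values. Of these, 17 reached the floor and 13 of the 17 rose, with a median of 1.51 (1.27 after GC centring). Since 10 of the 17 were below 1 FPKM in D12S+ and qualified through D16S+ alone, the count over all 25 is given too, which was 25 higher and none lower with a median of 1.28. The promoters of 3 of the 7 members that carry the sequence CACGTG are shown here as examples chosen after their values were seen. In it a CG sits inside a binding site of E-box factors. Windows run from 250 bases before to 50 bases after the RefSeq start (GRCm38.p6, unlike the mm9 build of the table). Capitals mark every CG and every CACGTG.
Fkbp6 (chr5:135349995-135350294, minus strand): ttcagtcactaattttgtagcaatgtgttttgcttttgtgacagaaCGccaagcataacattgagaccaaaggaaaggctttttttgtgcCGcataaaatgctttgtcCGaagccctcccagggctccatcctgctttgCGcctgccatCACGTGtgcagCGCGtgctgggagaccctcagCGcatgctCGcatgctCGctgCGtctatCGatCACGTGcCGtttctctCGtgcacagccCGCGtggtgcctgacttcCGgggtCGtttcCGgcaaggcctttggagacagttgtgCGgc
Sycp3 (chr10:88459337-88459636, plus strand): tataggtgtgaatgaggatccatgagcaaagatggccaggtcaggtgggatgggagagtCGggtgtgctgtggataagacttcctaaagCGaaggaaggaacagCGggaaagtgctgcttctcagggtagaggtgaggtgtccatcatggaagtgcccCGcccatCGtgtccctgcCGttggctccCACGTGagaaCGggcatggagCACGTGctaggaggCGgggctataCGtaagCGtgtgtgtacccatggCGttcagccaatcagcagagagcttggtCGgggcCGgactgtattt
Mael (chr1:166238695-166238994, minus strand): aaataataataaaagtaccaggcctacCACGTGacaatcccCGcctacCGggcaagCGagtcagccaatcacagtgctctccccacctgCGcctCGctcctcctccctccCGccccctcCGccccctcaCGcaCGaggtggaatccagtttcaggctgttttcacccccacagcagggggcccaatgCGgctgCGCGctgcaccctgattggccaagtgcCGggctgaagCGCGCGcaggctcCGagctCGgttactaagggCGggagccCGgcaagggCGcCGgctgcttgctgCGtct

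The Fkbp6 window held 21 CG and 2 CACGTG, the Sycp3 window 15 CG and 2 CACGTG, and the Mael window 24 CG and 1 CACGTG. The median was 19.5 CG over the germline members with a window and 21.0 CG over all genes of the comparison with one, so CG content did not set this list apart. Of the 16 germline members with a RefSeq window, 7 (43.8%) held CACGTG (Fkbp6, Ddx4, Sycp3, Mael, Taf7l, Mov10l1 and Taf9b), against 977 (10.4%) of the 9390 genes of the comparison with a window. Among genes at least 4-fold higher it stood in 6 of 24 windows (25.0%), which include Fkbp6 and Mael. Among all genes that rose the share was 9.60%, near that of all genes. The AP-1 site TGANTCA was in 3 germline windows (18.8%), against 4.95% of all, and the octamer ATGCAAAT was in 0, against 1.48% of all. GGGNGGGG was in 31.2% of the germline windows and 51.2% of all. Motifs were searched on both strands, and a match describes the letters only. Listed germline genes below the floor were not searched, and 10 of the 17 members qualified through D16S+ alone. The germline shares therefore describe these members and not the whole list.

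Fkbp6, a co-chaperone of the piRNA pathway and of meiotic chromosome pairing, was listed at 0 in D9T- and rose from 1.31 to 11.4 FPKM. Its log2 difference was 2.42, and iPSCs had 23.3 FPKM. Mael, another piRNA factor, went from 0.697 to 5.97 FPKM (2.04), and Sycp3, a lateral element protein of the synaptonemal complex, from 0.547 to 3.43 FPKM (1.52). All 3 were listed at 0 in D12S-, and Sycp3 was at 0 in D16S- too.

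Tex19.1, a repressor of retrotransposons in germ cells and placenta, rose from 36.4 to 114 FPKM (1.62) and was the most abundant member. Tuba3a, a testis tubulin gene, rose from 17.4 to 69.4 FPKM (1.93), and Hsf2bp, a meiotic recombination factor, from 4.32 to 16.3 FPKM (1.70). Mov10l1, the piRNA helicase gene, rose from 0.858 to 4.65 FPKM (1.60), and Taf7l, a germ cell variant of a TFIID subunit, from 0.0990 to 2.38 FPKM (1.62). Dazl and Ddx4, an RNA-binding protein and a helicase of germ cells, rose from 0.447 to 2.78 FPKM and from 0.353 to 2.34 FPKM. Rpl10l, Taf9b, Pramel1 and Piwil2 were higher by less than 2-fold. The median level of the 17 on the log2 scale was 0.05 in D9T-, 0.89 in D12S+, 2.36 in D16S+, 2.46 in iPSCs and 0.24 in D16S-.

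The genes of the 2-cell stage, which mouse stem cells switch on in rare bursts, were higher in D16S+ as well. All 7 that reached the floor rose, with a median of 2.02, but 4 of the 7 were below 1 FPKM in D12S+ and qualified through D16S+ alone. Of the 16 listed genes 14 had values, and all 14 were higher with a median of 1.02. Tcstv1, a 2-cell transcript, went from 1.30 to 19.4 FPKM (3.15), while iPSCs had 37.2 FPKM of it and mESCs 1.07 FPKM. Tcstv3 (0.854 and 11.3 FPKM), Usp17la (0.141 and 3.62 FPKM) and Zscan4c (0.104 and 1.78 FPKM), a telomere-associated zinc finger gene, were also higher in D16S+ than in D12S+, and iPSCs were higher still (22.6, 8.01 and 4.81 FPKM). Eif1a, which is not particular to that stage, was at 12.1 and 27.8 FPKM. The 7 also include Dppa3, which is already counted among the pluripotency-associated genes above. Members of these families are near-identical, so the split of reads among copies is uncertain. Only 4 of the 7 had a GC value, with a centred median of 0.93 and 2 of them past 2-fold.

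Formative pluripotency genes, which mark cells between the naive and primed states, showed no common direction. Of 13 genes 1 rose and 1 fell, with a median of 0.07. Fgf15 rose from 1.15 to 4.45 FPKM (1.34), and Sox4 fell from 9.91 to 3.68 FPKM (-1.22). Otx2, the homeodomain factor of the formative state, was at 0.243 FPKM in D9T- and then at 19.6 and 31.3 FPKM in the SSEA-1+ libraries, with 1.81 FPKM in iPSCs. Cldn6, a tight junction gene of the early epiblast, was at 69.0 and 138 FPKM.

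In the Nodal pathway the feedback inhibitor genes Lefty1 and Lefty2 rose, while the ligand gene and the other inhibitor genes listed, Cer1 and Smad7, did not. Lefty1 rose from 41.7 to 115 FPKM (1.44) and Lefty2 from 18.9 to 51.6 FPKM (1.40), and these were the only 2 of 12 members past 2-fold. Nodal was at 39.3 and 47.7 FPKM, its co-receptor gene Tdgf1 at 250 and 339 FPKM, and Foxh1, the transcription factor that works with Smad2, at 48.5 and 58.5 FPKM. In iPSCs Lefty1 was at 0.867 FPKM and Lefty2 at 1.58 FPKM, far below both SSEA-1+ libraries, while Nodal was at 67.4 FPKM. Smad3 was at 13.1 and 7.93 FPKM.

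Early lineage transcription factors were mostly low in level, though more of them were higher than lower in D16S+. Of 19 genes 8 reached the floor, 6 of them higher and 2 lower, with a median of 0.53 (0.71 after GC centring over 6 genes). Of the 8, 1 rose and none fell. Over all 19 listed genes 13 were higher and 5 lower, with a median of 0.28. T, Mixl1, Gsc, Foxa2, Sox17 and Cdx2, the factors that mark mesoderm, endoderm and trophectoderm, were below 1 FPKM in both libraries. Gata4, the endoderm factor, rose from 0.177 to 1.55 FPKM and qualified through D16S+ alone. Tfap2c, a factor of trophoblast and germ cells, had the highest level at 41.7 and 65.7 FPKM.

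Genes for DNA methylation held their level as a group. Of 13 genes none rose and 1 fell, with a median of -0.08 (-0.01 after GC centring, when 1 was higher by 2-fold and none lower). The gene that fell was Tet3, a dioxygenase that oxidises methylcytosine, from 4.40 to 1.62 FPKM (-1.04, and -0.90 after GC centring). Tet1, the form of embryonic stem cells, was at 12.7 and 23.9 FPKM (0.87). Dnmt3l, the cofactor of de novo methylation in germ cells, was at 172 and 336 FPKM (0.96), while Dnmt3a (18.3 and 16.8 FPKM) and Dnmt1 (94.7 and 85.4 FPKM) were close in both libraries.

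Histone H3.3, the replication-independent variant that the study follows, is encoded by H3f3a and H3f3b. H3f3a was at 120 and 85.0 FPKM and H3f3b at 212 and 205 FPKM. Of the 11 genes for H3.3 and its chaperones 1 rose, with a median of 0.21 (0.05 after GC centring). This was Asf1a, which hands histones to the HIRA and CAF-1 complexes, from 1.04 to 4.02 FPKM (1.30, and 0.98 after GC centring). Hira was at 24.4 and 29.3 FPKM, Daxx at 39.7 and 50.1 FPKM, and Atrx at 5.98 and 9.17 FPKM, none of them 2-fold apart.

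Among 23 Polycomb genes 2 rose and 1 fell (-1.055), with a median of 0.20. After GC centring 2 were higher by 2-fold and none lower. Mtf2, which directs Polycomb repressive complex 2 to CG-rich DNA, rose from 5.05 to 14.7 FPKM (1.38). Pcgf5, a subunit of variant Polycomb repressive complex 1, rose from 1.72 to 5.53 FPKM (1.26). The core genes Ezh2 (16.9 and 21.9 FPKM) and Eed (16.9 and 19.5 FPKM) were close.

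**Figure D3:**
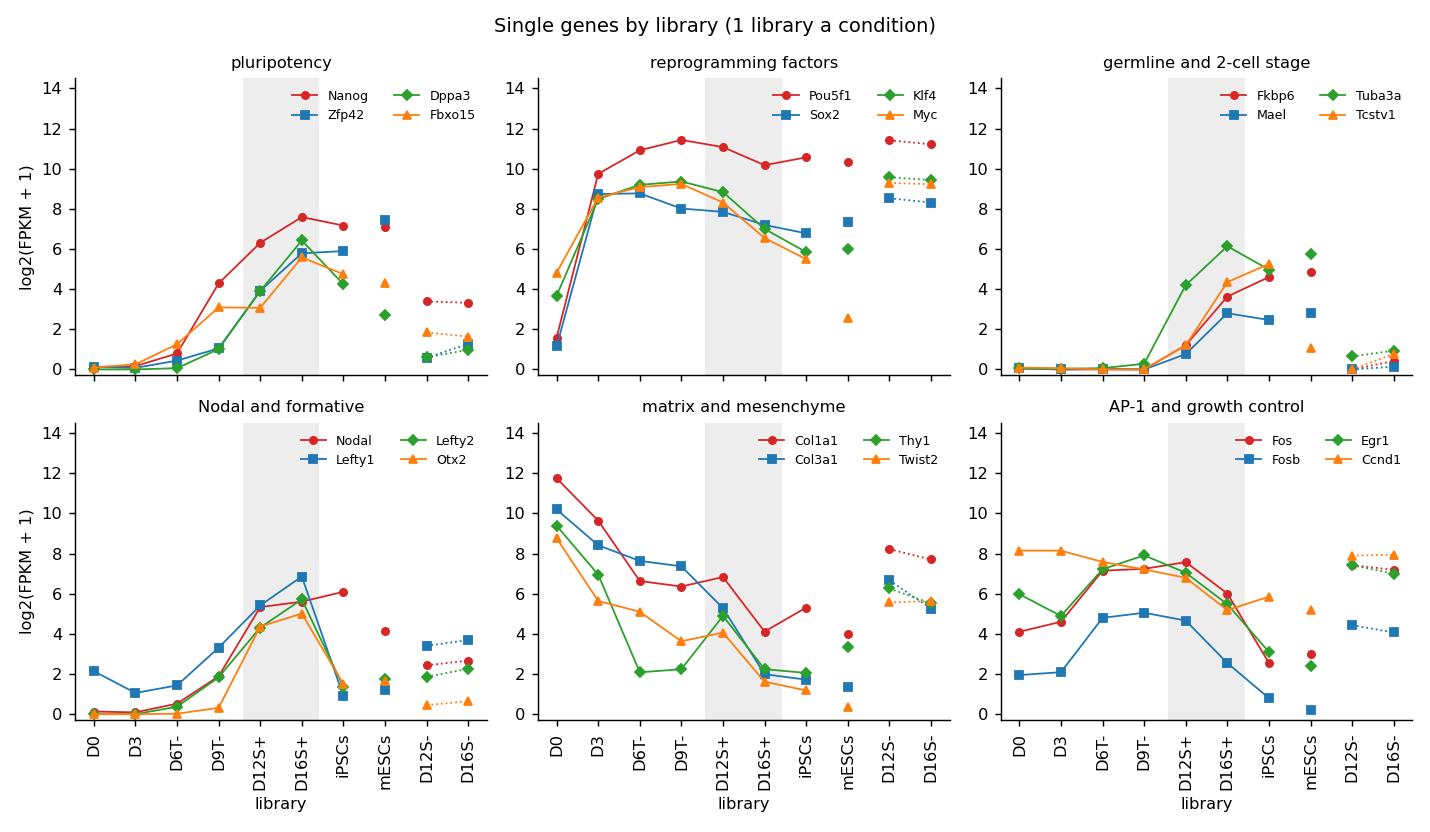
Level on log2(FPKM + 1) of 24 named genes in 10 libraries, with 1 point per library, no error bars since each library is single, solid lines along the successful route and the compared libraries shaded. Nanog and Dppa3 in D16S+, at 192 and 85.0 FPKM, lie above iPSCs, while Col1a1 and Klf4 go down to 16.3 and 127 FPKM.

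The fibroblast matrix was the list with the most members that fell. Of 38 genes that reached the floor 29 fell and none rose, with a median of -1.53 (-1.52 after GC centring). Of the 38, 5 were below 1 FPKM in D16S+ and qualified through D12S+ alone. Over all 42 listed genes 39 were lower and 2 higher, with a median of -1.44. Col1a1, the main chain of type I collagen (chromosome 11, 94797538 to 94814356, plus strand, mm9), fell from 113 to 16.3 FPKM (-2.73). It had been at 3453 FPKM in D0 and was at 38.7 FPKM in iPSCs, so D16S+ lay below the end point. Col3a1, the type III collagen gene, fell from 37.9 to 2.97 FPKM (-3.29), and Tnc, the matrix protein tenascin, from 35.7 to 3.90 FPKM (-2.91). The proteoglycan gene Bgn fell from 34.3 to 4.56 FPKM (-2.67).

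Type VI collagen genes fell together, with Col6a1 at 102 and 18.2 FPKM, Col6a2 at 28.6 and 5.17 FPKM, and Col6a3 at 15.7 and 1.94 FPKM. Inhibitors of matrix proteases fell too, with Timp1 at 280 and 87.5 FPKM and Timp2 at 46.0 and 7.95 FPKM. Fn1, which encodes fibronectin and is also made by pluripotent cells, was at 348 and 196 FPKM and did not reach 2-fold. Fbln1, a glycoprotein of basement membranes, was the 1 member that was higher, at 18.3 and 25.4 FPKM. Thy1, the surface marker used to sort the earlier days, fell from 28.7 to 3.73 FPKM (-2.65). D9T- had 3.72 FPKM, but those cells were sorted as Thy-1 negative, while the later cells were sorted on SSEA-1.

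In the SSEA-1- cells the matrix list had a median of -0.37, with 4 of the 38 genes at least 2-fold lower, and Col1a1 was at 298 FPKM on day 12 and 208 FPKM on day 16. Col3a1 fell there as well, from 101 to 37.2 FPKM. The median log2 level of the 38 genes was 4.85 in D12S+, 2.70 in D16S+, 2.01 in iPSCs, 6.30 in D12S- and 5.82 in D16S-.

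Transcription factors of mesenchymal cells moved the same way. Of 18 that reached the floor 17 were lower and 5 fell, with a median of -0.79 (-0.74 after GC centring, when 14 were lower, 6 of them by 2-fold). Of the 18, 6 were below 1 FPKM in D16S+ and qualified through D12S+ alone. Twist2, a basic helix-loop-helix factor of dermal fibroblasts, fell from 15.7 to 2.06 FPKM (-2.45), and Foxd1, a forkhead factor of stromal cells, from 22.1 to 2.97 FPKM (-2.54). Prrx1, the limb mesenchyme homeobox gene, fell from 10.3 to 2.61 FPKM (-1.64), and Tbx15 and Meox2 also fell. Twist1 was at 4.72 and 1.93 FPKM and Snai1 at 8.80 and 4.52 FPKM, short of 2-fold on this scale. Snai2 was below 1 FPKM in both libraries.

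Hox genes, which record the position of the fibroblasts along the body, were lower in 22 of 23 cases and 10 fell, with a median of -0.92 (-0.83 after GC centring). Hoxc6 fell from 6.87 to 1.72 FPKM (-1.53) and Hoxa10 from 8.30 to 2.29 FPKM (-1.50). The levels were low throughout, and 13 of the 23 were below 1 FPKM in D16S+ and qualified through D12S+ alone. Over all 36 listed genes 34 were lower and 2 higher, with a median of -0.64. In D16S- Hoxc6 was still at 13.1 FPKM and Hoxa10 at 9.35 FPKM.

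Genes of the TGF-beta pathway, which upholds the mesenchymal state, had a median of -0.57 (-0.26 after GC centring and -1.24 with a pseudocount of 0.1), and 6 of 15 fell while 1 rose. Tgfbr2, the ligand-binding receptor, fell from 29.8 to 9.23 FPKM (-1.59). The latent TGF-beta binding protein genes Ltbp1 (19 and 4.58 FPKM) and Ltbp3 (20.5 and 6.73 FPKM) fell, as did the ligand genes Tgfb3 and Inhba and the target Tgfbi. Ctgf, a matricellular target also known as Ccn2, rose from 21.8 to 52.5 FPKM (1.23).

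In the BMP list 5 of 15 genes fell and 1 rose, with a median of 0.03 that turned to -0.10 after GC centring and to -0.65 with a floor of 5 FPKM. GC centring left 3 lower and none higher by 2-fold. The antagonists Grem1 (9.56 and 0.835 FPKM) and Chrd (10.7 and 3.82 FPKM) and the procollagen protease gene Bmp1 (21.3 and 6.28 FPKM) fell. Of the Id genes, which are targets of BMP signalling, Id1 fell from 72.6 to 32.7 FPKM and Id3 from 59.6 to 23.2 FPKM, while Id2 rose from 10.5 to 25.5 FPKM (1.21, and 0.91 after GC centring). The ligand gene Bmp4 was at 10.5 and 17.2 FPKM.

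The Wnt list had a median of -0.11, with 1 of 22 genes higher by 2-fold and 2 lower. Wnt7b, a ligand, rose from 3.88 to 11.1 FPKM (1.31), and the antagonists Dkk2 (4.48 and 1.05 FPKM) and Notum (23.3 and 9.26 FPKM) fell. The feedback target Axin2 was at 2.36 and 5.52 FPKM, short of 2-fold.

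Contractile cytoskeleton genes were mixed, with 2 of 22 lower by 2-fold, 1 higher (Ctgf, given above) and a median of -0.30. Cryab, a small heat shock protein gene, fell from 787 to 302 FPKM, and Actg2, a smooth muscle actin gene, from 7.79 to 1.40 FPKM. Tagln was at 25.2 and 41.5 FPKM and Acta2 at 14.7 and 7.81 FPKM, neither of them past 2-fold.

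Of 35 genes for epithelial junctions and identity 22 were higher and 13 lower, 2 fell and none rose, with a median of 0.23 (0.26 after GC centring). Cdh1, which encodes E-cadherin, was at 85.8 and 130 FPKM, Krt18 at 175 and 259 FPKM, and Epcam at 171 and 150 FPKM, all of them high by day 12. The 2 that fell were Krt19, a keratin gene, from 221 to 94.2 FPKM (-1.22), and Pkp1, a desmosome gene of stratified epithelia, from 28.1 to 6.19 FPKM (-2.02).

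Of 20 epidermal and stratified epithelium genes that reached the floor 17 were lower and 8 fell, with a median of -0.87 (-0.76 after GC centring). Lgals7, the keratinocyte galectin gene, fell from 198 to 26.9 FPKM (-2.84), and Slurp1, a secreted ligand of keratinocytes, from 89.9 to 13.7 FPKM (-2.63). Aldh3a1, the aldehyde dehydrogenase of corneal epithelium, fell from 356 to 79.6 FPKM (-2.15) and was at 0.436 FPKM in iPSCs. Adh7 (44.1 and 13.4 FPKM), Anxa8 (135 and 49.6 FPKM), Cnfn (22.4 and 6.33 FPKM), Krt6a (4.86 and 1.08 FPKM) and Ly6d (27.3 and 10.3 FPKM) also fell. Sfn was at 163 and 176 FPKM and Krt7 at 58.6 and 76.8 FPKM. Krt5 and Trp63, the defining genes of basal keratinocytes, were below 1 FPKM in both libraries.

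The genes of the AP-1 complex, which reads growth factor and stress signals, were lower in 10 of 11 cases and 4 fell, with a median of -0.86 (-0.65 after GC centring). Fos (chromosome 12, 86814840 to 86818223, plus strand, mm9) fell from 190 to 63.3 FPKM (-1.57), Fosb from 24.3 to 4.83 FPKM (-2.12), Fosl1 from 13.1 to 4.94 FPKM (-1.25) and Junb from 127 to 52.6 FPKM (-1.26). Jun was at 50.5 and 26.1 FPKM, short of 2-fold, and Jund was at 53.2 and 56.6 FPKM. Fos was at 4.86 FPKM in iPSCs, so D16S+ stood between D12S+ and the end point. After GC centring only Fos and Fosb stayed past 2-fold.

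Feedback genes of MAPK signalling were lower in 15 of 17 cases, and 3 fell. Egr1, an immediate early zinc finger factor, fell from 131 to 43.5 FPKM (-1.57), Ier3 from 135 to 62.3 FPKM (-1.10) and Spred3 from 7.13 to 2.94 FPKM (-1.05). The list median was -0.41 before and -0.40 after GC centring, but after it 11 of the 17 were lower and 1 was so by 2-fold, Egr1 (-1.43). Dusp6, the ERK phosphatase gene, was at 30.4 and 20.4 FPKM, and Etv5 at 116 and 135 FPKM.

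Of 16 genes for CDK inhibitors, the p53 pathway and cyclins of the G1 phase 4 fell and none rose, with a median of -0.38 (-0.35 after GC centring). Ccnd1 fell from 110 to 35.3 FPKM (-1.61) and Ccnd2 from 60.5 to 17.4 FPKM (-1.74), while Ccnd3 was at 162 and 181 FPKM. Among the inhibitors Cdkn1a, which encodes p21, fell from 338 to 152 FPKM (-1.15), and Cdkn2a, the locus of p16 and p19Arf, from 163 to 80.2 FPKM (-1.01).

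Of 25 mitosis genes 24 were higher and 3 rose, with a median of 0.56 (0.41 after GC centring). Ccnb1, the cyclin of mitotic entry, rose from 22.3 to 71.5 FPKM (1.64), Ccna2 from 14.9 to 38.6 FPKM (1.32), and the spindle motor gene Kif11 from 8.58 to 18.2 FPKM, whose difference of 1.00 sat at the limit. Of 33 DNA replication genes 31 were higher but none by 2-fold, with a median of 0.33 (0.36 after GC centring), and Mcm5, of the replicative helicase, was at 108 and 127 FPKM. The medians in SSEA-1- cells were -0.39 for mitosis and -0.48 for replication, and Ccnb1 was at 9.45 and 7.50 FPKM.

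Metabolic lists changed little as wholes. Glycolysis and hypoxia response genes had a median of -0.24 with 2 of 24 lower by 2-fold, which were the hypoxia targets Egln3 (138 and 46.8 FPKM) and Ndrg1 (159 and 68.8 FPKM). Oxidative phosphorylation subunits had a median of 0.07 with 1 of 29 higher by 2-fold, Uqcrc2 of complex III, at 22.2 and 63.6 FPKM. Of 22 cholesterol synthesis genes 16 were lower, 1 fell and 1 rose, with a median of -0.20. The fall was the larger change, with a log2 difference of -2.49, and after GC centring 1 gene was lower by 2-fold and none higher. The riser was Nsdhl, a sterol dehydrogenase gene, at 6.96 and 16.0 FPKM, and after GC centring it was short of 2-fold (0.93).

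In one-carbon and serine-glycine metabolism 3 of 20 genes rose and none fell, with a median of 0.22. Gldc (17.8 and 52.0 FPKM, 1.50) and Gcsh (9.62 and 27.4 FPKM, 1.42) encode subunits of the glycine cleavage system, and Mthfd2 (22.1 and 49.5 FPKM, 1.13) acts in mitochondrial folate metabolism. Amt, another subunit of that system, was at 43.2 and 68.9 FPKM. Tdh, the threonine dehydrogenase of mouse stem cells, was at 198 and 157 FPKM.

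Interferon response genes had a median of -0.09 with 2 of 28 lower by 2-fold. These were Irf7, a master regulator of type I interferon, from 41.3 to 16.3 FPKM, and the ubiquitin-like modifier gene Isg15, from 91.0 to 43.5 FPKM. None of 17 genes for MHC class I and antigen processing changed by 2-fold, with a median of 0.00. B2m, the light chain of MHC class I, was at 153 FPKM in both libraries, and H2-K1, a heavy chain, at 169 and 138 FPKM. SSEA-1- cells of the same days differed here, as B2m rose from 364 to 903 FPKM and H2-K1 from 339 to 941 FPKM.

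Imprinted genes showed single changes. Of 18 imprinted genes outside the Dlk1-Dio3 region Phlda2, a growth restrictor of the placenta, rose from 12.7 to 30.3 FPKM (1.19), and Nnat, a proteolipid gene, fell from 10.3 to 2.92 FPKM (-1.53). At Dlk1-Dio3 the noncoding RNA genes Meg3 (201 and 132 FPKM), Rian (45.8 and 27.3 FPKM) and Mirg (23 and 18.6 FPKM) were lower by less than 2-fold, and Dlk1 and Dio3 were below 1 FPKM. The X inactivation centre had 3 genes above the floor and none past 2-fold, with Xist at 2.45 and 1.50 FPKM and Rlim, an activator of Xist, at 6.28 and 12.8 FPKM.

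Ribosomal protein genes had a median of 0.04, and 3 of 30 rose. Rpl26 was at 14.8 and 249 FPKM, Rps4x at 397 and 1408 FPKM, and Rpl5 at 89.2 and 223 FPKM. Ribosomal protein genes have many processed pseudogenes, and reads with several loci were removed, so these values are uncertain. Across the comparison, the 313 genes with a named pseudogene copy in RefSeq had a median of 0.10 and 7.67% of them rose, against -0.03 and 3.99% of the other 12150. For SSEA-1- cells the corresponding shares were 2.24% and 2.10%. A part of mapping in the rises of these genes was not tested.

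The genes with the largest differences were named by a fixed rule, the 15 largest per direction among genes with at least 10 FPKM in the higher library and a locus of at least 500 bases. Of the 15 largest rises 9 were small RNA genes by name and only 3 were annotated as protein-coding. The foremost, Mir7079, was listed at 0 in D12S+ and reached 773 FPKM in D16S+, with an interval in D16S+ from 0 to 130291 FPKM. Very short genes can reach a high FPKM with few reads, so such rises are not described further. Restricted after seeing the data to protein-coding genes with a complete estimate, the rule names 15 genes, led by Rpl26 and by 2010107E04Rik (6.12 and 77.1 FPKM).

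Several of these 15 belong to the germline or to early embryos. Stag3, the meiotic cohesin gene, rose from 2.58 to 17.4 FPKM (2.36) and was at 2.51 FPKM in iPSCs. Stra8, which starts meiosis in response to retinoic acid, rose from 1.76 to 12.5 FPKM (2.29) and was at 36.7 FPKM in iPSCs. Fmr1nb, a cancer-testis antigen gene, rose from 4.80 to 29.4 FPKM (2.39), and Esx1, an X-linked homeobox gene of placenta and germ cells, from 1.34 to 13.7 FPKM (2.65). Dppa3, Fbxo15 and Fkbp6 are described above.

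Others of the 15 serve general functions. Sec61g, a translocon subunit, was at 1.84 and 28.3 FPKM, Psma4, a proteasome subunit, at 6.47 and 49.4 FPKM, and Prdx1, a peroxidase, at 13.3 and 94.1 FPKM. Kpna2, the importin that carries stem cell factors into the nucleus, rose from 9.12 to 50.8 FPKM (2.36). Calcoco2, an autophagy receptor, was at 1.88 and 15.5 FPKM, and Klhl13, an X-linked adaptor of a ubiquitin ligase, at 4.56 and 30.7 FPKM. For Sec61g, Psma4 and Prdx1, D16S+ was well above both D12S+ and iPSCs, which had 9.90, 17.8 and 15.9 FPKM.

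The 15 largest falls were all protein-coding. Tac2, which encodes a neurokinin precursor (chromosome 10, 127162448 to 127168823, plus strand, mm9), fell from 25.9 to 0.341 FPKM (-4.33). Acsbg1, a fatty acid CoA ligase gene, fell from 46.7 to 4.33 FPKM (-3.16), and Crabp1, which binds retinoic acid, from 354 to 43.7 FPKM (-2.99). The secreted protease inhibitor gene Slpi (127 and 18.4 FPKM), the water channel gene Aqp5 (65.1 and 9.44 FPKM) and the fatty acid binding gene Fabp4 (21.8 and 2.58 FPKM) belong to epithelial and fat cells. Olfml3 was at 34.9 and 4.11 FPKM. Col3a1, Tnc, Col1a2, Col1a1, Bgn, Thy1, Lgals7 and Slurp1, described above, make up the rest.

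**Figure D4:**
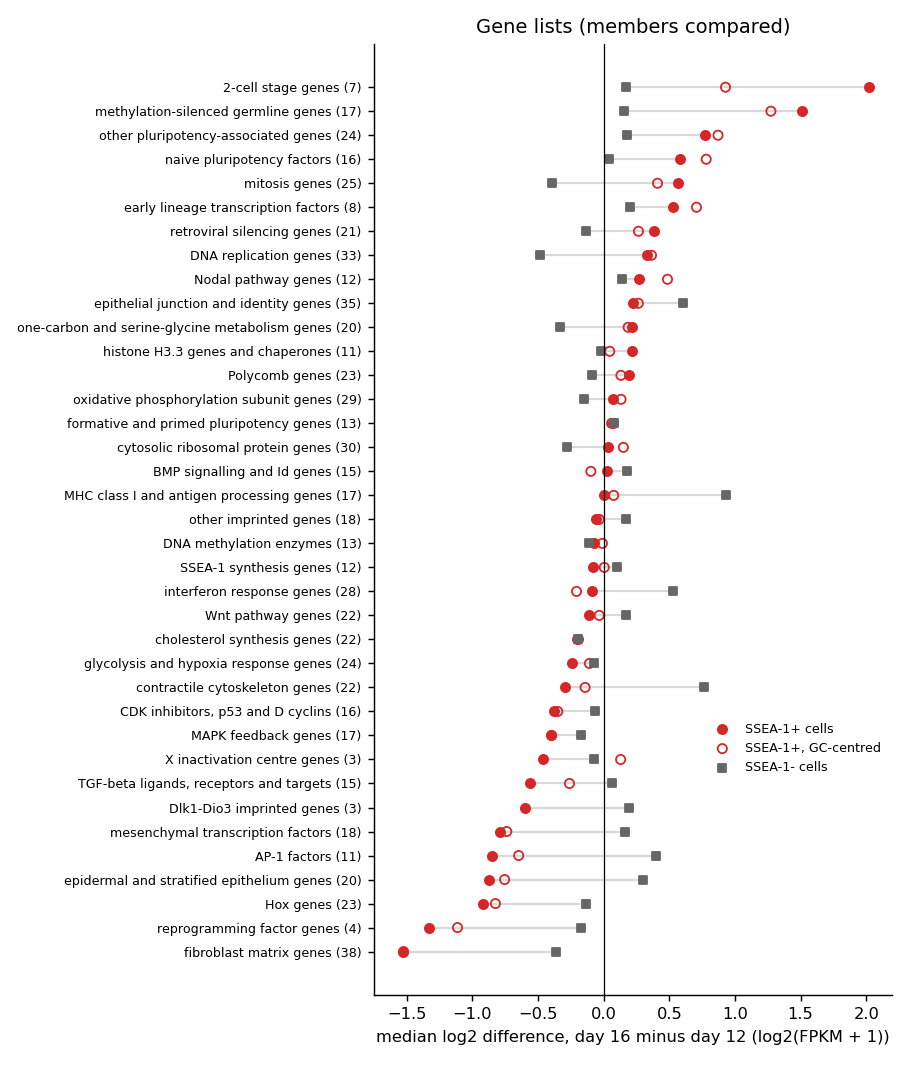
Median log2 difference from day 12 to day 16 for each gene list, in SSEA-1+ cells (filled circles), in the same cells after GC centring (open circles) and in SSEA-1- cells (squares), with the number of members in brackets. Matrix genes lie lowest in SSEA-1+ cells at -1.53, and 2-cell and germline genes lie highest at 2.02 and 1.51.

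The SSEA-1- cells of the same days, which share no library with this comparison, changed less and mostly upward. Of 12131 genes there 288 (2.37%) were at least 2-fold higher on day 16 and 76 (0.626%) were lower, and the standard deviation of the difference was 0.41. Over the 11611 genes compared in both fractions, 20 rose in both, which is 6.43% of those that rose in SSEA-1+ cells and 7.63% of those in SSEA-1- cells. Among all these 11611 genes 2.68% rose in SSEA-1+ and 2.26% in SSEA-1- cells. A fall in both was seen for 38 genes, 5.06% of the SSEA-1+ falls and 56.7% of the SSEA-1- falls, against 6.47% of all these genes that fell in SSEA-1+ and 0.577% in SSEA-1- cells.

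Some genes changed alike in both fractions. Tac2 (86.8 and 10.6 FPKM in SSEA-1- cells), Trh (401 and 86.4 FPKM), which encodes thyrotropin-releasing hormone and went from 458 to 81.8 FPKM in SSEA-1+ cells, and the kinase gene Pim2 (47.9 and 16.8 FPKM, against 76.8 and 28.5 FPKM in SSEA-1+ cells) fell in both. Fabp3, a fatty acid binding gene, rose from 72.8 to 196 FPKM in SSEA-1+ cells and from 9.43 to 40.5 FPKM in SSEA-1- cells. Tex19.1, Esx1, Wnt7b and Ctgf rose in both as well.

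Other genes moved apart. A rise in SSEA-1+ and a fall in SSEA-1- cells was seen for 5 genes, all of them small RNA genes (Mir5133 and 4 Snora genes). They were 7.46% of the SSEA-1- falls, while 2.68% of all genes compared in both fractions rose in SSEA-1+ cells. The 6 with the reverse pattern were Adm, Cryab, Esm1, H2-L, LOC547349 and Nppb. They were 2.29% of the SSEA-1- rises, while 6.47% of all genes compared in both fractions fell in SSEA-1+ cells. Cryab fell in SSEA-1+ cells as given above and rose from 1626 to 3639 FPKM in SSEA-1- cells, and H2-L, an MHC class I gene, was at 24.0 and 4.64 FPKM against 44.1 and 107 FPKM. The chemokine gene Ccl2 fell from 73.0 to 18.6 FPKM in SSEA-1+ cells and was at 187 and 300 FPKM in SSEA-1- cells. Cdh13 (85.7 and 13.2 FPKM) and the receptor kinase gene Axl (52.2 and 9.51 FPKM) fell in SSEA-1+ cells and were at 218 and 194 FPKM and at 135 and 138 FPKM in SSEA-1- cells. Whether these differences between fractions exceed the spread of replicates was not tested.

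The levels of the changed genes in libraries outside the comparison are given side by side. The 427 genes that rose and have a coding transcript had a median of 2.41 FPKM in D9T-, then 3.84 and 11.4 FPKM in D12S+ and D16S+. Their median was 8.25 FPKM in iPSCs, 8.54 in mESCs and 2.36 in D16S-. The 708 genes with a coding transcript that fell had medians of 16.7 FPKM in D9T-, then 11.9 and 3.83 FPKM in D12S+ and D16S+. Their median was 1.71 FPKM in iPSCs, 1.75 in mESCs and 20.4 in D16S-. The D12S+ and D16S+ medians are fixed by the choice of genes, and the others are not. The median of the risers was higher in both end points than in D9T- and the SSEA-1- cells, and that of the fallers was lower. Over all genes compared, the medians were 10.2 FPKM in D9T-, 9.44 in iPSCs, 9.55 in mESCs and 10.6 in D16S-. The risers thus stayed below the median of all genes in both end points. For the 77 genes at least 4-fold lower, the medians were 26.9 FPKM in D12S+, 4.56 in D16S+, 0.934 in iPSCs and 49.9 in D16S-.

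**Figure D5:**
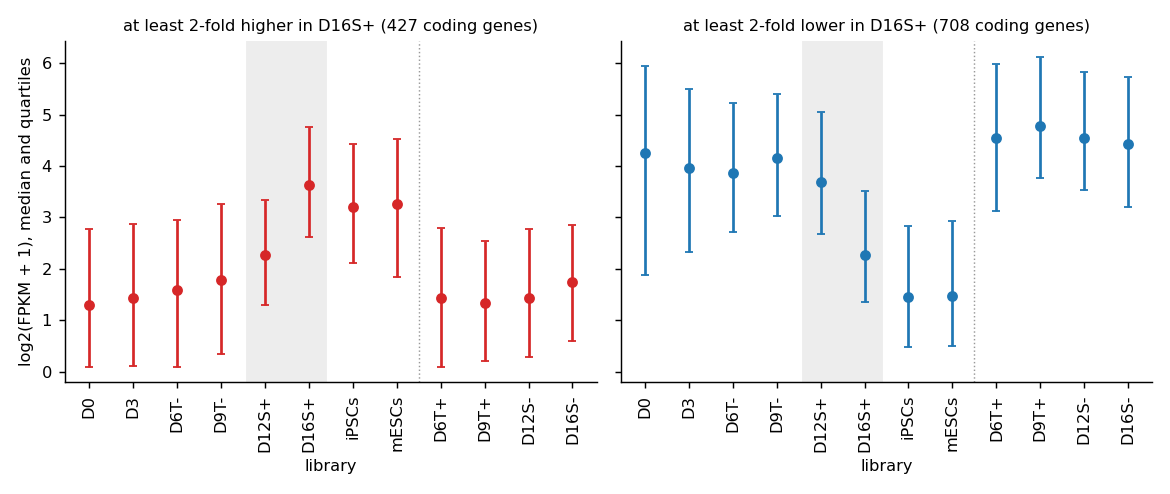
Median level on log2(FPKM + 1) in each of the 12 libraries of the 427 coding genes that rose (left) and the 708 that fell (right), with bars from the lower to the upper quartile over genes. Medians of the risers go from 3.84 FPKM in D12S+ to 11.4 in D16S+ and 8.25 in iPSCs, and those of the fallers from 11.9 to 3.83 and 1.71.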

How the data were processed

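Messenger RNA of 12 conditions, 1 library each, was sequenced by the authors from polyA RNA. The labels name a stranded TruSeq mRNA kit, while the methods of the study name a TruSeq RNA kit, so strand use is uncertain. Libraries were sequenced on a HiSeq instrument and mapped with STAR to the mm9 mouse genome. Reads with more than 2 mismatches or more than 1 locus were removed, which lowers genes with near-identical copies and cannot part retroviral from endogenous OSKM reads. The deposited values are FPKM made by the authors with cuffdiff, each with the ends of a modelled interval (95% by its default). Software versions, the annotation and the library scaling are not given in the sources used here. Total fragments were not used, so absolute depth is unknown. Relative depth came from the most common ratio of low values, below 0.5 FPKM. Every column of values was assigned to a library by its name, and 0 were left unused.

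Members, gene lists and naming rules were chosen with earlier results of these data known, and support nothing independently. Groups came from the titles. Differences were taken as log2(FPKM + 1) in genes with at least 1 FPKM in either library, using Python 3.11.15, numpy 2.4.6, pandas 2.3.3, scipy 1.17.1 and matplotlib 3.10.9. Counts were made at 2-fold and 4-fold without a test. The 37 lists and 10 marker lists are described by counts and medians. Genes were named as list members, as the 15 largest differences per direction (at least 10 FPKM, locus of at least 500 bases), as up to 8 per direction that differ most between fractions, and as up to 8 that changed alike in both. A further naming rule, the same 15 among protein-coding genes with complete estimates, was added after seeing the data. GC content is that of the longest coding transcript in GENCODE M1 (mm9), centred in 20 bins. Positions are from GENCODE M1, 1-based, found for 838 of 871 named genes. Promoters are from RefSeq (GRCm38.p6), and no coordinates were converted. The alternatives were another pseudocount (0.1), a higher floor (5 FPKM) or none, scaling to the same total or by the median of ratios, loci of at least 500 bases, and, after seeing the data, GC centring, coding genes only and genes with complete estimates only. The scripts were tested on simulated data. Some genes that met the naming rules are not reported here.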

Additional observations from a re-analysis of the deposited data

Results flagged for a closer look

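For 9 gene lists the median log2 difference from day 12 to day 16 had opposite signs in SSEA-1+ and SSEA-1- cells and lay at least 1.5-fold apart. Each fraction had 1 library a day, so the difference between fractions was not tested. The SSEA-1+ median minus the SSEA-1- median was -1.25 for AP-1 factors, -1.17 for epidermal and stratified epithelium genes, -1.06 for contractile cytoskeleton genes and -0.95 for mesenchymal transcription factors. It was -0.79 for the 3 Dlk1-Dio3 genes, -0.63 for TGF-beta genes and -0.62 for interferon response genes. It was 0.96 for mitosis genes and 0.81 for DNA replication genes, the lists that were higher on day 16 in SSEA-1+ cells and lower in SSEA-1- cells. For some lists 1 of the signs rested on a median near 0. Interferon response genes were at -0.09 in SSEA-1+ cells, and TGF-beta genes at 0.06 in SSEA-1- cells.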

How the results depend on the processing

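No paired analysis was possible because each condition has 1 library and the labels give no shared replicate numbers, and for the same reason no library could be left out. With a pseudocount of 0.1, which spreads low genes, 862 genes were 2-fold higher and 1192 lower in SSEA-1+ cells, 171 and 226 at 4-fold, and 473 and 168 at 2-fold in SSEA-1- cells. The medians then were 2.31 for germline, 3.58 for 2-cell and -1.51 for Hox genes. With a floor of 5 FPKM, 49 genes were 2-fold lower in SSEA-1- cells and the 2-cell median was 2.63. Of the alternatives chosen after seeing the data, GC centring left 25 genes 4-fold higher and a 2-cell median of 0.93 over 4 genes, and the limit to coding genes left 22 genes 4-fold higher. Scaling to the same total FPKM moved the median of all genes to 0.05 and the higher share of 2-fold calls from 40.3% to 48.4%, with 624 higher and 665 lower. Of 184 list medians under the alternatives 9 moved beyond the allowed margin, and 7 of 37 lists changed sign under some setting: formative pluripotency, H3.3, BMP, Wnt, SSEA-1 synthesis, X inactivation centre and other imprinted genes. The cause was not tested. Single libraries and wide modelled intervals limit every value, most of all below about 5 FPKM.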
